A study of Mus musculus with 9 samples.

Results

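The 8 genes described here encode 7 aquaporins (Aqp1, Aqp2, Aqp3, Aqp4, Aqp6, Aqp7 and Aqp11), the water channels that the mouse kidney expresses, and Avpr2, the V2 receptor for the antidiuretic hormone vasopressin. They were taken by gene symbol from a table of 34310 genes, where each symbol had 1 row. Poly(A) RNA of fresh whole kidney was sequenced from 9 mice, 3 in each of 3 groups: a saline group, a group that received lipopolysaccharide (LPS, a bacterial endotoxin) and a group that received LPS together with thymosin β4 (LPS+Tβ4), a small actin-binding peptide. Each library is 1 mouse. The labels give no strain, sex, age, dose, route, sampling time or batch. The saline group is the control of both other groups, so the comparisons with saline share those 3 libraries. LPS against saline and LPS+Tβ4 against LPS likewise share the 3 LPS libraries, with opposite sign. A low LPS value thus lowers the first difference and raises the second, so a fall and a later rise are not independent results.

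Aquaporins are membrane pores that let water follow osmotic gradients, and some also pass glycerol. AQP1 carries most of the water reabsorbed in the proximal tubule and thin descending limb, without hormonal control. In the collecting duct, vasopressin binds the V2 receptor, which raises cyclic AMP through the stimulatory G protein and adenylyl cyclase. Protein kinase A then drives AQP2 vesicles to the apical membrane and Aqp2 transcription rises, while AQP3 and AQP4 form the basolateral exit. Loss of AQP2 or of the V2 receptor gives dilute urine, as in nephrogenic diabetes insipidus.

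The labels call the tissue kidney, and kidney epithelial markers were abundant in every library: 10 proximal tubule markers summed to 11716 to 13795 counts per M reads counted (CPM) in saline, 1341 to 4905 in LPS and 1855 to 3706 in LPS+Tβ4. CPM here are counts scaled to the library total after TMM normalization. The libraries held 53 to 62 M counts. They differed in transcripts of the renal papilla and pelvis. The summed level of 6 urothelial markers was 2.54, 68.8 and 85.7 CPM in the 3 saline libraries, 73.5, 55.3 and 4.20 CPM in LPS, and 2.06, 1.36 and 106 CPM in LPS+Tβ4. The sum of 6 inner medulla markers other than aquaporins followed the same split, at 216, 977 and 844 CPM in saline, 1317, 850 and 113 in LPS, and 210, 139 and 1019 CPM in LPS+Tβ4. A limit of 10 CPM for the urothelial sum, set after these values were seen, put saline replicates 2 and 3, LPS replicates 1 and 2 and LPS+Tβ4 replicate 3 in a set of 5 libraries, called papilla-rich here for these transcripts, and the other 4 in a papilla-poor set. No marker of either list passed the test in any comparison (edgeR adjusted p), and 0 of 6 in each had an unadjusted p under 0.05 or were called by DESeq2 or limma. Over all genes tested, edgeR called 43.1% in LPS against saline, 6.83% in LPS+Tβ4 against LPS and 24.1% in LPS+Tβ4 against saline. Fat cell (adipocyte) transcripts split the same way. The sum of 5 markers was 137 to 818 CPM in the papilla-rich libraries and 32.6 to 87.4 CPM in the others. The libraries also differed in neural transcripts. The 7 neuron and myelin markers summed to 59.9 to 68.0 CPM in saline, 30.2 to 179 in LPS and 483 to 584 in LPS+Tβ4. Erythroid transcripts were lower in LPS+Tβ4: the sum of 5 markers was 544 to 689 CPM in saline, 533 to 704 in LPS and 180 to 261 in LPS+Tβ4. In LPS+Tβ4 edgeR called 5 of 5 lower against each other group, where 2.33% of all genes tested were lower against LPS and 11.8% against saline. The mitochondrial genome gave 12.9 to 16.2% of counts in saline and 7.59 to 10.6% in the other libraries. The part of these differences in the results was not tested. In bulk tissue, fewer cells of a type and less RNA per cell cannot be told apart.

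On the genome (GRCm38), 2 pairs of the genes are neighbours. Aqp2 (ENSMUSG00000023013, chr15:99579055-99584547, plus strand) is followed by Aqp5 after 6.23 kb and by Aqp6 (ENSMUSG00000043144, chr15:99601400-99605477, plus strand) after 16.9 kb, and Aqp7 (ENSMUSG00000028427, chr4:41033074-41048139, minus strand) lies 44.6 kb from Aqp3 (ENSMUSG00000028435, chr4:41092722-41098183, minus strand). The others are Aqp1 (ENSMUSG00000004655, chr6:55336432-55348555, plus strand), Aqp11 (ENSMUSG00000042797, chr7:97724006-97738289, minus strand), Aqp4 (ENSMUSG00000024411) and Avpr2 (ENSMUSG00000031390, chrX:73892102-73894428, plus strand). Avpr2 overlaps 2 genes of the opposite strand, Arhgap4 and L1cam. Aqp4 is overlapped by the antisense gene Gm50048, which reached at most 0.901 CPM.

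Promoters of 7 of the 8 genes were taken from the RefSeq table (GRCm38.p6), and that of Aqp4 was not used here. Shown are the 250 bases before the RefSeq start of the 2 genes that fell in both comparisons with saline (Aqp1 and Aqp11) and of the hormone receptor with the channel it regulates (Avpr2 and Aqp2). Each is written 5′ to 3′ on the gene's strand, with matched motifs in capitals.
Aqp1 promoter, chr6:55336049-55336298, plus strand: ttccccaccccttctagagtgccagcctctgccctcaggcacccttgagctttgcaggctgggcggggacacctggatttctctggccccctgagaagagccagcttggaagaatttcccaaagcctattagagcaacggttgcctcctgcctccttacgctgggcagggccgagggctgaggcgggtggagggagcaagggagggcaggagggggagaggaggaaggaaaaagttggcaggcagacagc
Aqp11 promoter, chr7:97738248-97738497, minus strand: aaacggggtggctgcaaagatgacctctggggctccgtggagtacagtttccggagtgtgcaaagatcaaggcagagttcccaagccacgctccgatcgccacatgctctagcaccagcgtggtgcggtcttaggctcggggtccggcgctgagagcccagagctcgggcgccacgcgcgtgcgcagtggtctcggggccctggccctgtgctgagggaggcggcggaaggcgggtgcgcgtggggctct
Avpr2 promoter, chrX:73891852-73892101, plus strand: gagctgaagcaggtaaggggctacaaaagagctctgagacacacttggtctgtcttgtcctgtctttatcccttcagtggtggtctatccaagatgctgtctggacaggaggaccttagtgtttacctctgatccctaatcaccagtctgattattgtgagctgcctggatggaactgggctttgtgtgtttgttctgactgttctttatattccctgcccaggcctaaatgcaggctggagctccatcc
Aqp2 promoter, chr15:99578806-99579055, plus strand: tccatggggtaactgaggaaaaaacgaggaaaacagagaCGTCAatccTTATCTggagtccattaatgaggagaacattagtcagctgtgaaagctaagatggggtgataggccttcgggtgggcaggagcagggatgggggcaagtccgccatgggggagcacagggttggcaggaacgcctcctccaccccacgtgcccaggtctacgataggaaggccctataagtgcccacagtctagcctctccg
Both strands were searched for the cyclic AMP response element core TGACG, the GATA site AGATAA, the AP-1 site TGANTCA, the HNF1 and NF-kB consensus sequences and the tonicity element. The Aqp2 window holds TGACG on the minus strand at -211 to -207 and AGATAA on the minus strand at -202 to -197, counted back from the base before the start. Among 32851 RefSeq promoter windows of this length, 17.8% hold TGACG and 9.99% hold AGATAA. The Aqp1, Aqp11 and Avpr2 windows hold none of the 6 motifs. Of the other genes, Aqp6 had a match to the NF-kB consensus at -110 to -101 (7.25% of all windows), Aqp7 had a tonicity element at -234 to -224 (4.31%) and AGATAA at -132 to -127 in 1 of its 2 RefSeq promoters, and Aqp3 had none. These matches describe letters in a window, not bound sites.

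How endotoxin alone affected the water channel transcripts was read from LPS against saline. Of the 8 genes, 5 fell (Aqp1, Aqp3, Aqp7, Aqp11 and Avpr2) and 0 rose in edgeR's quasi-likelihood test. Of the 15015 genes tested, 22.2% fell, 20.9% rose and 43.1% changed in either direction. All 8 genes passed the expression filter, a mean of 0.5 FPKM or more across all libraries. The median change of the 8 was -1.35 on the log2 scale, against 0.02 over all genes tested. The same 5 genes had LPS ranges wholly below the saline ranges, as did 28.5% of the genes tested (54.3% did not overlap in either direction).

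**Figure D1:**
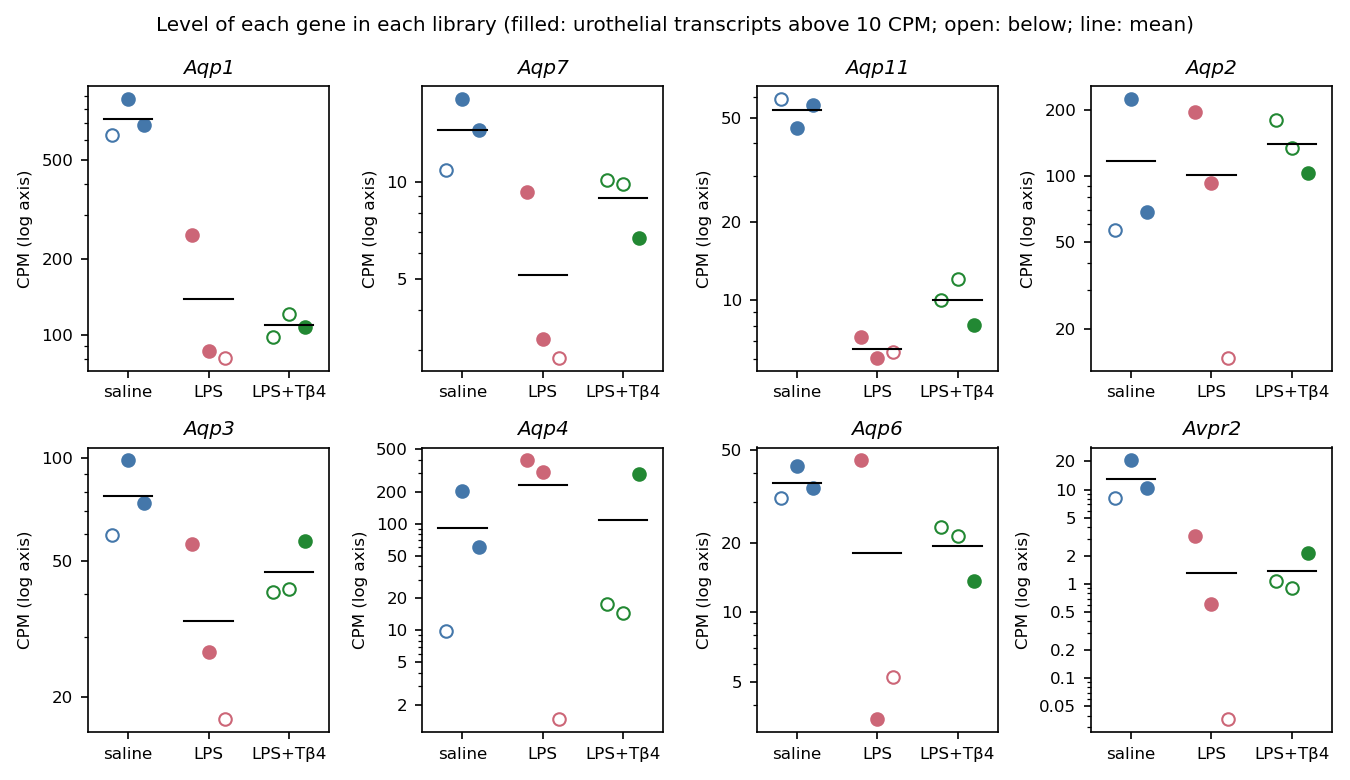
Level of each gene in each library, in CPM on a log axis, by group; filled points are the 5 papilla-rich libraries, open points the other 4, and lines are group means. All LPS points of Aqp1, Aqp3, Aqp7, Aqp11 and Avpr2 lie below all saline points, whereas Aqp4 separates filled from open points in every group.

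Aqp1, the constitutive water channel of proximal tubule and thin descending limb, stood at 630, 875 and 687 CPM in the saline libraries, at 250, 86.3 and 80.9 CPM in LPS, and at 98.2, 121 and 108 CPM in LPS+Tβ4. Every library of the endotoxin-treated groups was below the lowest saline library. It fell 5.25-fold with LPS (log2 change -2.39 ± 0.43 SE, edgeR adjusted p = 0.0027) and was called in all 25 alternative analyses. LPS+Tβ4 was lower than saline by a similar amount (-2.74 ± 0.43, adjusted p = 0.0033), a call lost only among the 5 papilla-rich libraries (adjusted p = 0.1). LPS+Tβ4 did not differ detectably from LPS (-0.35 ± 0.41, adjusted p = 0.64). That difference was positive without LPS replicate 1, at 0.38.

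Aqp11, an intracellular aquaporin of the proximal tubule whose loss in mice leads to cystic kidneys, was at 58.9, 45.4 and 55.9 CPM in saline. It stood at 7.27, 6.03 and 6.34 CPM in LPS and at 10.04, 12.1 and 8.04 CPM in LPS+Tβ4. The 3 groups did not overlap, and LPS was the lowest. The LPS change was -3.03 ± 0.20 (8.15-fold lower, adjusted p = 4.3e-05), and every alternative that tested the gene called it, with changes from -3.13 to -1.78. In LPS+Tβ4 it was 5.31-fold below saline (-2.41 ± 0.19, adjusted p = 0.00025). The difference of LPS+Tβ4 from LPS was 0.62 ± 0.18 and missed the threshold (adjusted p = 0.079). It passed with DESeq2 (adjusted p = 0.029) and without LPS replicate 1 (0.047), and alternatives ranged up to an adjusted p of 0.84.

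Aqp7, an aquaglyceroporin of the late proximal tubule that returns glycerol and water, was at 10.8, 18.1 and 14.5 CPM in saline, 9.29, 3.24 and 2.83 in LPS, and 10.1, 9.84 and 6.68 CPM in LPS+Tβ4. It fell 2.82-fold with LPS (-1.50 ± 0.46, adjusted p = 0.03), the call being lost without saline replicate 2 or 3 or LPS replicate 2 or 3 (adjusted p from 0.071 to 0.098). LPS+Tβ4 differed from LPS by 0.79 ± 0.46 (adjusted p = 0.32). Its LPS+Tβ4 range lay below the saline range, with a difference of -0.70 ± 0.45 (adjusted p = 0.3). Fat cells also express Aqp7. The sum of 5 adipocyte markers was 32.6, 548 and 137 CPM in saline, 227, 647 and 52.0 in LPS, and 49.0, 87.4 and 818 CPM in LPS+Tβ4. The libraries with the highest sums in LPS (replicate 2) and LPS+Tβ4 (replicate 3) did not have the highest Aqp7, whereas saline replicate 2 had both the highest sum and the highest Aqp7. The part of fat in Aqp7 was not tested.

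The other proximal tubule markers gave the setting of these changes. Of 10 markers other than aquaporins, 7 fell with LPS and 0 rose, with a median of -2.52, where 22.2% of all genes tested fell. On the log2 scale Lrp2, the endocytic receptor megalin, fell by 3.43 and its partner Cubn fell by 3.10. The sodium phosphate cotransporter family member Slc17a3 fell by 2.23 and the lactate cotransporter Slc5a12 fell by 4.62. Of 4 tested thin limb markers, edgeR called 0 with LPS, where it called 43.1% of all genes tested in either direction. Among them, 1 had an unadjusted p under 0.05, and DESeq2 and limma each called 1. They split in sign around a median of 1.04. Slc4a11 (-0.51 ± 1.18) and Cryab (-0.38 ± 0.74) were lower, as Aqp1 was, and Bst1 (2.47 ± 1.37) and Fst (2.63 ± 1.02) were higher. For the proximal tubule markers, LPS+Tβ4 against LPS gave 0 calls among the 10 in edgeR, where 6.83% of all genes tested were called. Of the 10, 2 had an unadjusted p under 0.05, and DESeq2 called 2 and limma 1. Relative to the mean of the 10 proximal tubule markers on the log2(CPM + 0.1) scale, Aqp1 stood at -0.15 ± 0.33 in saline, 0.26 ± 2.11 in LPS and -0.14 ± 0.39 in LPS+Tβ4 (SD, n = 3). The LPS group held values of 2.63, -0.46 and -1.40. None of the 3 comparisons differed in an exact two-sided permutation test (p = 1 for LPS against saline, 1 for LPS+Tβ4 against LPS and 0.9 for LPS+Tβ4 against saline), where 3 libraries against 3 cannot give a p below 0.1. Without LPS replicate 1 the LPS difference from saline turned from 0.40 to -0.78, and that of LPS+Tβ4 from LPS turned from -0.39 to 0.79.

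**Figure D2:**
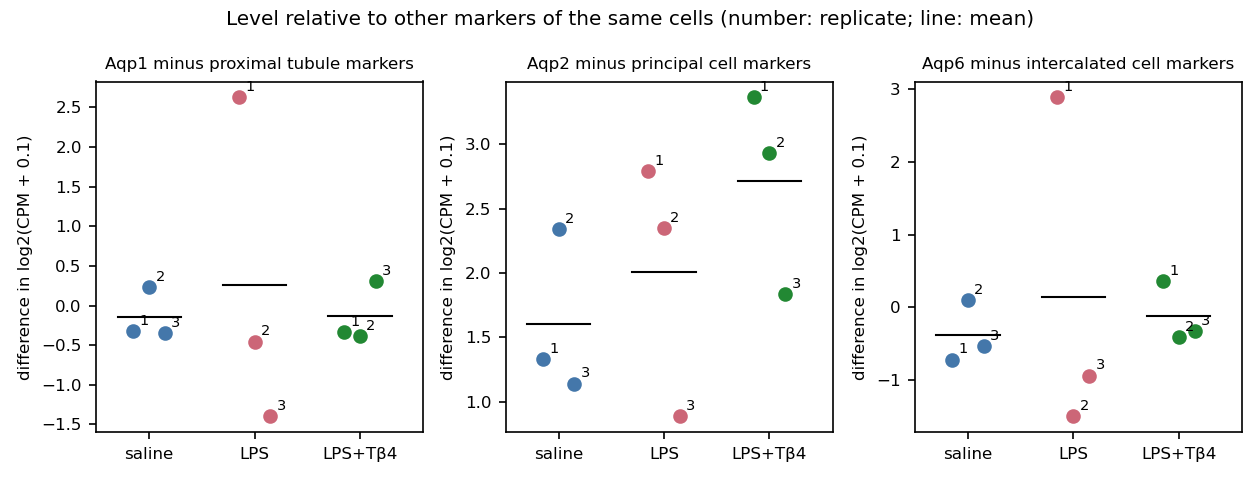
Aqp1, Aqp2 and Aqp6 relative to other markers of their cells, as the gene's log2(CPM + 0.1) minus the mean over the markers, in each library (numbers are replicates, lines are means). LPS replicate 1 stands apart for Aqp1 at 2.63 and for Aqp6 at 2.88, above all other libraries.

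Avpr2, the V2 receptor through which vasopressin acts on the collecting duct, was at 8.26, 20.5 and 10.4 CPM in saline, 3.25, 0.61 and 0.04 in LPS, and 1.08, 0.91 and 2.14 CPM in LPS+Tβ4. No endotoxin-treated library reached the lowest saline value. LPS replicate 3 held 2 counts, with an exact Poisson 95% interval of 0.0044 to 0.131 CPM that covers counting error only. The receptor fell with LPS by 3.32 ± 1.14 on the log2 scale (adjusted p = 0.043). Without LPS replicate 3 the change was -2.75 (adjusted p = 0.028), and without LPS replicate 1 it was -5.29 (0.006). The call was lost without any 1 of the saline libraries, LPS replicate 2 or any 1 of the LPS+Tβ4 libraries (adjusted p from 0.052 to 0.13). LPS+Tβ4 differed from LPS by 0.08 ± 1.05 (adjusted p = 0.97). Against saline it was lower by a like amount (-3.24 ± 1.13) with non-overlapping ranges, but missed the threshold (adjusted p = 0.071), and 9 of 24 alternatives called it, among them those without LPS replicate 1 (0.022) or LPS replicate 3 (0.013).

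Avpr2 overlaps Arhgap4 and L1cam, which are read from the other strand. The protocol marks strand with dUTP, but whether counting used it is not given in the sources used here, so reads of these genes could be mixed and Avpr2 values are uncertain to that extent. Arhgap4 was at 14.7 ± 3.09 CPM in saline, 6.31 ± 2.70 in LPS and 7.43 ± 4.00 in LPS+Tβ4 (SD, n = 3). L1cam, which encodes a cell adhesion molecule, was at 46.3 ± 25.1, 17.7 ± 16.9 and 23.0 ± 11.5 CPM. In LPS replicate 3, where Avpr2 had 2 counts, Arhgap4 had 187 and L1cam 321 counts. The part of these neighbours in the Avpr2 difference was not tested.

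Aqp2, the vasopressin-regulated channel of principal cells, showed no detectable change in any comparison. Its levels were 56.7, 224 and 68.1 CPM in saline, 194, 92.3 and 14.8 in LPS, and 180, 134 and 102 CPM in LPS+Tβ4. The groups overlapped, and the LPS libraries spanned a 13.2-fold range. LPS differed from saline by -0.21 ± 0.81 (adjusted p = 0.85), LPS+Tβ4 from LPS by 0.47 ± 0.82 (0.77) and LPS+Tβ4 from saline by 0.26 ± 0.81 (0.85). With this error a difference of the size seen for Aqp3 was not detectable.

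The sign for Aqp2 depended on the libraries. LPS against saline was positive without saline replicate 2 (0.69) or LPS replicate 3 (0.30). Between the papilla-rich libraries of LPS and saline (2 against 2) it was -0.03, and between the papilla-poor ones (1 against 1) it was -1.93. LPS+Tβ4 against LPS was -0.48 in papilla-rich libraries (1 against 2) and 3.40 in papilla-poor ones (2 against 1). In the papilla-poor set, the 2 LPS+Tβ4 libraries had 180 and 134 CPM of Aqp2, the saline library 56.7 and the LPS library 14.8.

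Aqp3, the basolateral aquaglyceroporin of the collecting duct, was at 59.6, 98.7 and 73.9 CPM in saline, 56.2, 27.0 and 17.2 in LPS, and 40.5, 41.4 and 57.3 CPM in LPS+Tβ4. The highest LPS and LPS+Tβ4 libraries came close to the lowest saline library without reaching it. Aqp3 fell with LPS by 1.21 ± 0.40 (2.31-fold, adjusted p = 0.04). Leaving out any 1 library other than LPS replicate 1 ended the call (adjusted p from 0.055 to 0.13), and without LPS replicate 1 the change was -1.76 (0.0027). LPS+Tβ4 differed from LPS by 0.47 ± 0.40 (adjusted p = 0.5) and from saline by -0.74 ± 0.40 (0.22). The sign was the same in both sets: papilla-rich LPS and saline libraries differed by -1.05 and papilla-poor ones by -1.79.

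Aqp4, the second basolateral channel and most abundant toward the inner medulla, varied more within groups than any other of the 8. It was at 9.75, 205 and 60.1 CPM in saline, 394, 306 and 1.45 in LPS, and 17.6, 14.5 and 296 CPM in LPS+Tβ4. The LPS libraries alone spanned 271-fold. No comparison passed the test: LPS against saline was 1.35 ± 1.73 (adjusted p = 0.56), LPS+Tβ4 against LPS -1.09 ± 1.72 (0.75) and LPS+Tβ4 against saline 0.26 ± 1.70 (0.93). Aqp4 moved with the papillary transcripts, at 60.1 to 394 CPM in the 5 papilla-rich libraries and 1.45 to 17.6 CPM in the 4 papilla-poor ones. It was the 1 gene of the 8 whose ranges in these sets did not overlap. The share of all genes tested that split this way was not counted. The inner medullary urea transporter gene Slc14a2 split the same way, at 50.6 to 352 and 0.29 to 33.1 CPM, and so did Akr1b3, the aldose reductase that makes sorbitol, at 480 to 623 and 33.6 to 45.5 CPM.

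**Figure D3:**
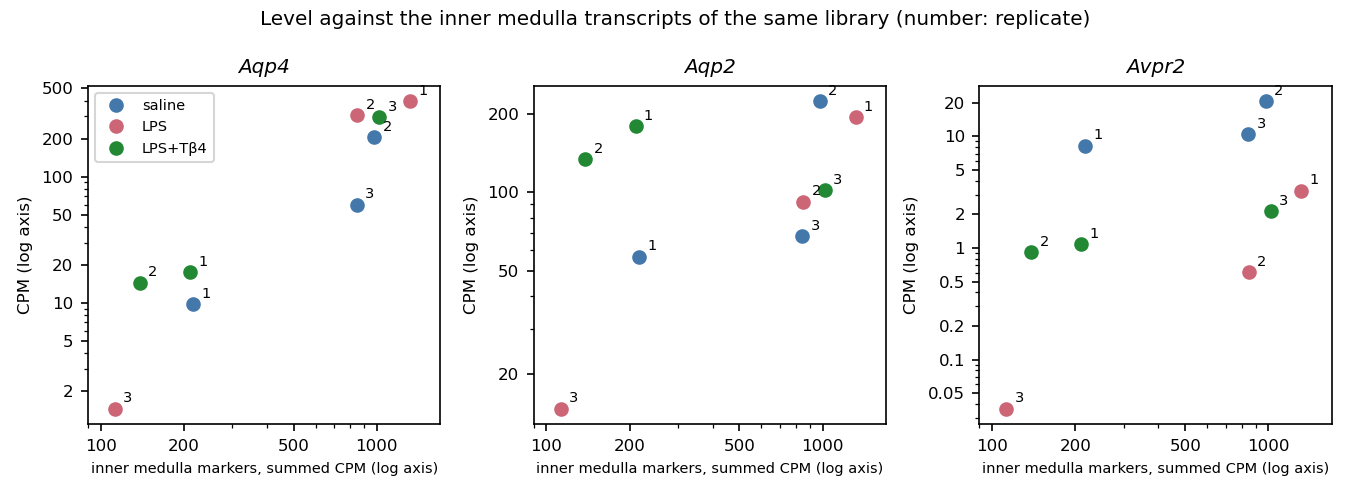
CPM of Aqp4, Aqp2 and Avpr2 in each library against the summed CPM of 6 inner medulla markers of the same library, both on log axes; numbers are replicates. Aqp4 is at 60.1 CPM or more in the 5 libraries on the right and at 17.6 CPM or less in the 4 on the left, while Avpr2 of saline lies above the other groups on both sides.

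Aqp4 is also the water channel of brain astrocytes, and LPS+Tβ4 libraries carried neural transcripts. The astrocyte gene Gfap was at 23.7, 25.8 and 24.7 CPM in LPS+Tβ4, against 0.82 to 3.54 CPM in the other libraries. Aqp4 in those same LPS+Tβ4 libraries was 17.6, 14.5 and 296 CPM. All 5 astrocyte markers together summed to 390 to 448 CPM in saline, 272 to 379 in LPS and 375 to 506 in LPS+Tβ4, of which Aldh1l1, which the kidney also expresses, made 236 to 424 CPM. None of the 5 was at 0 in any library. A fit with a term for the astrocyte sum gave LPS against saline for Aqp4 as -6.52. The part of neural RNA in the Aqp4 values was not tested.

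Aqp6, an anion-permeable aquaporin kept in vesicles of acid-secreting intercalated cells, was at 31.0, 42.8 and 34.5 CPM in saline, 45.2, 3.45 and 5.27 in LPS, and 23.3, 21.3 and 13.7 CPM in LPS+Tβ4. LPS replicate 1 was above all saline libraries, and the other LPS libraries were below every other library. With all libraries the LPS change was -1.003 ± 0.83 (adjusted p = 0.36) and LPS+Tβ4 differed from LPS by 0.11 ± 0.82 (0.95). Without LPS replicate 1 these became -3.00 (adjusted p = 0.00035) and 2.15 (0.0054), so 1 library decided both. LPS+Tβ4 against saline was -0.89 ± 0.83 (adjusted p = 0.47) with non-overlapping ranges, and -0.85 (0.035) without LPS replicate 1.

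The other intercalated cell markers moved more evenly than Aqp6. Of 9, 7 fell with LPS and 0 rose, with a median of -1.83, where 22.2% of all genes tested fell. The anion exchanger Slc4a1 fell by 4.61, the proton pump subunits Atp6v1b1 and Atp6v0d2 changed by -3.95 and -1.60, and the receptor gene Insrr fell by 4.10. In LPS+Tβ4 against LPS, where 4.5% of all genes tested rose, 3 of the 9 rose: Atp6v1b1 by 2.19 (adjusted p = 0.015), the transcription factor Hmx2 by 2.64 (0.015) and Insrr by 1.87 (0.046). Relative to these markers, Aqp6 was at -0.38 ± 0.43 in saline, 0.15 ± 2.39 in LPS and -0.12 ± 0.42 in LPS+Tβ4 (exact permutation p = 1, 1 and 0.5 in the order LPS against saline, LPS+Tβ4 against LPS, LPS+Tβ4 against saline). LPS replicate 1 was at 2.88 on this scale, where LPS replicates 2 and 3 were at -1.50 and -0.94.

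Principal cell markers other than aquaporins included 3 of 8 that fell with LPS and 0 that rose, with a median of -1.02 (22.2% of all genes tested fell). Hsd11b2, which inactivates glucocorticoids in aldosterone target cells, fell by 3.21 from 110 ± 28.9 to 11.9 ± 2.27 CPM. In LPS+Tβ4 it rose to 60.8 ± 17.3 CPM (2.36 ± 0.28 against LPS, edgeR adjusted p = 0.0093). It was the 1 of the 8 called higher in that comparison, with 7 not called, where 4.5% of all genes tested rose. Scnn1g, a subunit of the epithelial sodium channel, fell by 1.04 and the transcription factor Tfap2b fell by 1.29. Relative to these markers Aqp2 was at 1.60 ± 0.65 in saline, 2.01 ± 1.00 in LPS and 2.71 ± 0.79 in LPS+Tβ4 (SD, n = 3). The differences did not pass the exact permutation test (p = 0.6 for LPS against saline, 0.4 for LPS+Tβ4 against LPS and 0.2 for LPS+Tβ4 against saline).

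Whether thymosin β4 altered these transcripts under endotoxin was read from LPS+Tβ4 against LPS. Of the 8 genes, 0 passed the test in edgeR, where 6.83% of the genes tested did (4.5% higher and 2.33% lower). Aqp11 alone had an unadjusted p under 0.05 and was the 1 gene of the 8 called by DESeq2, and limma on FPKM called 0. Over all genes tested, DESeq2 also called more than edgeR did in this comparison. Aqp11 was also the 1 gene of the 8 whose LPS+Tβ4 range lay wholly above the LPS range, as did 14.2% of the genes tested. The median of the 8 differences was 0.29, against -0.01 over all genes tested. Without LPS replicate 1, edgeR called 4 of the 8 higher: Aqp3 (1.07), Aqp6 (2.15), Aqp7 (1.54) and Aqp11 (0.69). That fit called 10% of the genes tested higher. LPS replicate 1 was the highest LPS library for each of the 8 genes, so leaving it out raises these differences by construction. With any 1 library left out, the number called ran from 0 to 4.

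In edgeR, LPS+Tβ4 libraries had 2 of the 8 genes lower than saline (Aqp1 and Aqp11) and 0 higher, where 11.8% of the genes tested were lower, 12.3% higher and 24.1% different in either direction. DESeq2 and limma on FPKM each called 3 of the 8, with Avpr2 as the third. The shares of all genes that these tools called in this comparison are not given here. For 6 genes the LPS+Tβ4 range was wholly below the saline range, as it was for 26.3% of the genes tested (50.9% did not overlap in either direction): Aqp1, Aqp3, Aqp6, Aqp7, Aqp11 and Avpr2. The median was -0.81, against -0.00 over all genes tested. Without LPS replicate 1, edgeR called 4 of the 8 lower, with Aqp6 (-0.85) and Avpr2 (-3.19) beside Aqp1 and Aqp11, and 13.9% of the genes tested.

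**Figure D4:**
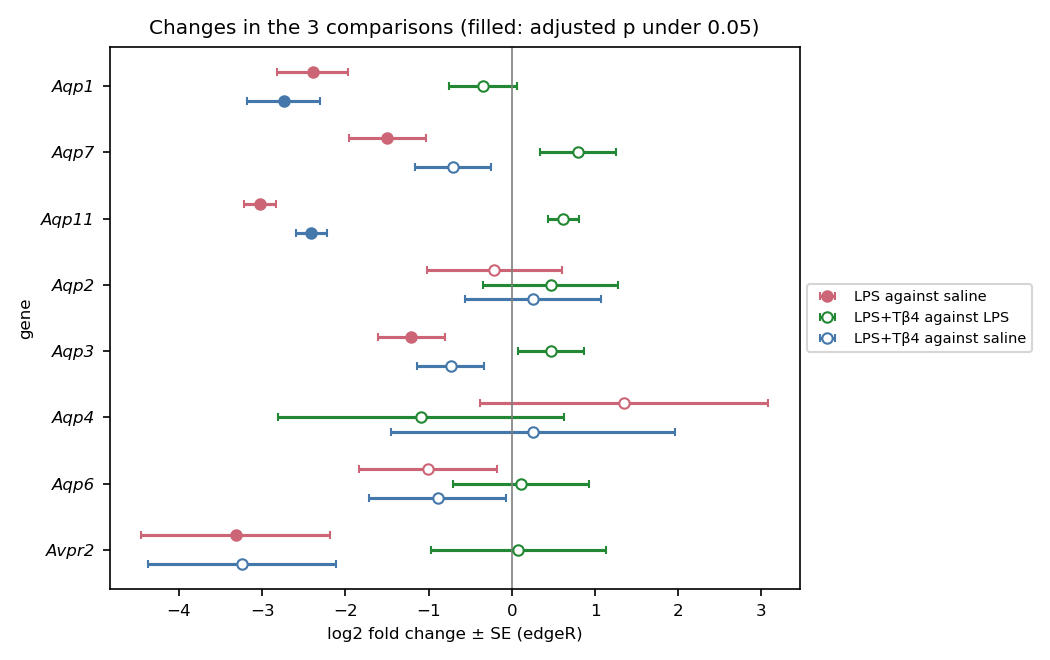
Log2 fold change ± SE of the 8 genes in the 3 comparisons, from edgeR; filled points have an adjusted p under 0.05. The 5 filled LPS points lie between -3.32 and -1.21, the green points for LPS+Tβ4 against LPS are all open, and the bars of Aqp4 are the widest.

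Because FPKM corrects for transcript length, it allowed the genes to be ranked within a group. In saline Aqp1 was highest at 230 ± 57.1 FPKM (SD, n = 3), its range above that of Aqp2 at 69.7 ± 60.5. Aqp3 (35.2 ± 11.5), Aqp4 (12.7 ± 14.6) and Aqp6 (12.3 ± 2.97) followed, each range overlapping the next higher one, and Aqp11 (4.63 ± 0.32), Aqp7 (4.25 ± 1.36) and Avpr2 (3.80 ± 2.18) were lowest and overlapped one another. In LPS Aqp2 led at 69.3 ± 67.6 FPKM, and Aqp1 (51.2 ± 41.4), Aqp4 (36.3 ± 33.3), Aqp3 (17.6 ± 12.7) and Aqp6 (7.48 ± 10.3) overlapped in turn. Aqp7 (1.74 ± 1.44) was above Aqp11 (0.64 ± 0.14), and Avpr2 was last at 0.45 ± 0.62. In LPS+Tβ4 Aqp2 stood at 91.7 ± 19.5 FPKM, above the range of Aqp1 at 39.5 ± 5.32, followed by Aqp3 (24.4 ± 7.10), Aqp4 (18.0 ± 27.2) and Aqp6 (7.51 ± 1.43). Aqp7 (2.94 ± 0.43), Aqp11 (1.00 ± 0.15) and Avpr2 (0.46 ± 0.27) came last and did not overlap one another, though Aqp7 lay within the range of Aqp4.

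The leading aquaporin thus differed between groups in FPKM. Aqp2 exceeded Aqp1 in 0 of 3 saline, 2 of 3 LPS and 3 of 3 LPS+Tβ4 libraries. Of the summed FPKM of the 7 aquaporins, Aqp1 made 64.7 ± 8.63% in saline, 34.5 ± 19.3% in LPS and 21.5 ± 3.81% in LPS+Tβ4. Aqp2 made 16.8 ± 7.99%, 32.6 ± 11.7% and 50.3 ± 13.4%. LPS replicate 3, the papilla-poor LPS library, was the one where Aqp1 (25.9 FPKM) stayed above Aqp2 (8.73 FPKM). These shares are descriptions, since a fall of 1 gene raises the share of the others.

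Of 20 genes of vasopressin receptor signalling, 3 rose and 3 fell with LPS, with a median of -0.16. Neither share was above that of all genes tested, of which 20.9% rose and 22.2% fell. Pde4b, a cyclic AMP phosphodiesterase, rose from 10.6 ± 1.43 to 63.8 ± 26.8 CPM (2.59 ± 0.37, adjusted p = 0.00098), and the receptor kinase Grk2 rose by 0.69. The adenylyl cyclase Adcy9 fell by 1.29 and the β-arrestin Arrb1 fell by 1.08. The third gene that fell was Avpr1a (-1.51, adjusted p = 0.017), the V1a vasopressin receptor, which is not a step from the V2 receptor to AQP2. No gene of this list was called in LPS+Tβ4 against LPS by edgeR, where 6.83% of all genes tested were. In the list, 3 had an unadjusted p under 0.05, and DESeq2 called 1 and limma 0.

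Among 20 genes of AQP2 trafficking and turnover, 4 rose and 2 fell with LPS, with a median of 0.10, again no larger shares than the 20.9% and 22.2% of all genes tested. The membrane-cytoskeleton linker Ezr rose by 1.08 and the vesicle SNARE Vamp2 by 0.48, while the target SNARE Snap23 fell by 0.90 and the vesicle motor Myo5b fell by 0.65. Again no gene was called in LPS+Tβ4 against LPS by edgeR, where 6.83% of all genes tested were. In the list, 4 had an unadjusted p under 0.05, and DESeq2 called 1 and limma 0. Of 15 collecting duct transcription factors, 2 rose with LPS (Elf3 2.49 and Pax8 1.09) and 2 fell (Tfap2b -1.29 and Hoxd8 -1.21), with a median of 0.24, shares below those same percentages. Hoxd8 rose in LPS+Tβ4 against LPS by 1.04 (edgeR adjusted p = 0.032). It was the 1 of the 15 called in that comparison, where 4.5% of all genes tested rose.

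**Figure D5:**
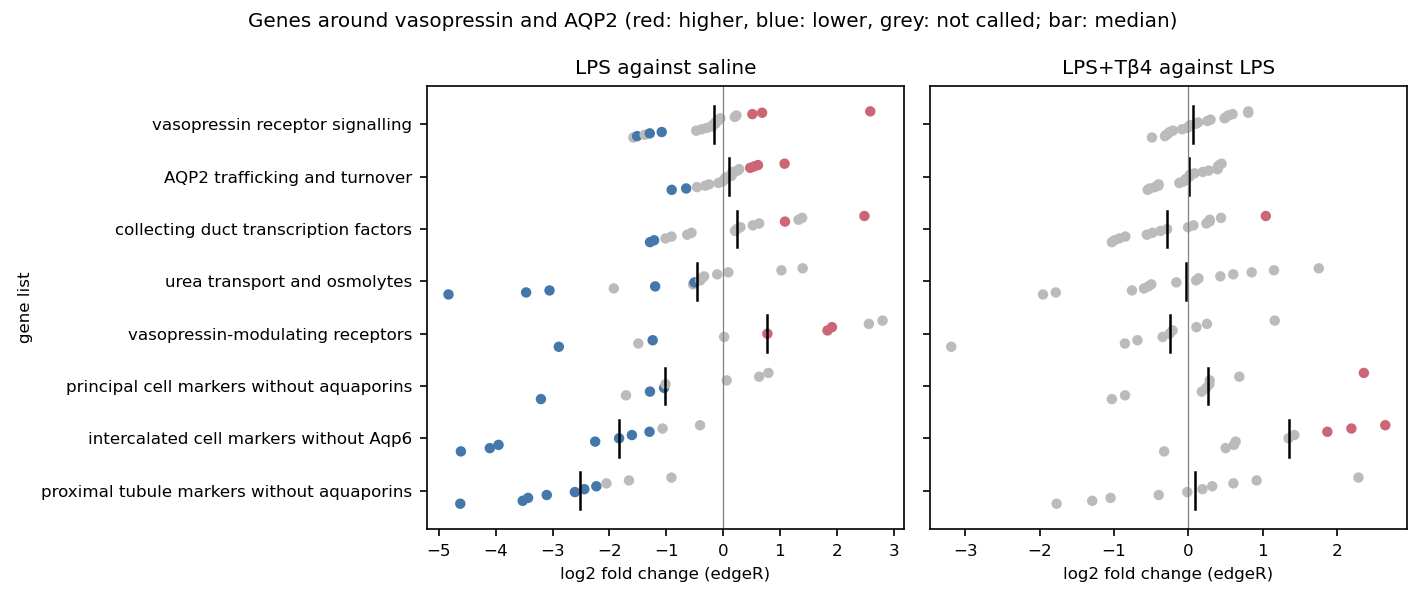
Log2 fold changes of the tested genes of 8 lists around vasopressin, AQP2 and the cells that hold the water channels, for LPS against saline and LPS+Tβ4 against LPS, from edgeR; bars are medians. The 3 cell marker lists have medians between -2.52 and -1.02 with LPS, while the signalling and trafficking lists have medians of -0.16 and 0.10.

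Receptors that modulate the vasopressin response and the genes of the urine concentrating gradient completed the pathway. Of 9 tested of 10 such receptors, 3 rose and 2 fell with LPS (median 0.78), against 20.9% and 22.2% of all genes tested. The bradykinin receptor Bdkrb2 rose by 1.84, the ATP receptor P2ry2 by 1.92 and the prostaglandin E2 receptor Ptger4 by 0.78, while the calcium-sensing receptor Casr fell by 2.89. Of 14 genes of urea transport, osmolytes and medullary salt transport, 5 fell and 0 rose (median -0.45). Of the salt transport genes of the thick ascending limb, Slc12a1, the target of loop diuretics, fell by 4.83, the potassium channel Kcnj1 fell by 3.47 and Bsnd, which encodes barttin, fell by 3.05. In LPS+Tβ4 against LPS edgeR called 0 genes of either list, where it called 6.83% of all genes tested. With 9 and 14 genes, 0 calls is not far from that share. In each list 1 gene had an unadjusted p under 0.05, DESeq2 called 1 and limma 0.

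The 5 other aquaporin genes of the table, Mip, Aqp5, Aqp8, Aqp9 and Aqp12, did not pass the expression filter. Their levels ran from 0 to 1.93 CPM over the 9 libraries. Aqp5, the neighbour of Aqp2, reached 1.93 CPM, in a papilla-rich library.

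The genes whose log2(CPM + 0.1) over the 9 libraries was most like that of each main channel were found by Pearson's r, as a description, since libraries share a group and differ in papillary transcripts. For Aqp1 they were Lrrc66, Ninl and Fam149a (r from 0.98 to 0.99). Lrrc66 ran from 7.71 to 12.9 CPM in saline and from 0.96 to 2.93 in LPS, which follows largely from its choice by correlation with Aqp1. For Aqp2 they were P2rx5, Gdpd3 and Myo3b (r from 0.91 to 0.93). For Aqp3 they were Zfp780b, Strip2 and Atp2c1 (r = 0.98 for each), and for Aqp4 they included Atp10b and Me2 (r = 0.98 for each). Atp10b ran from 15.5 to 120 CPM in the papilla-rich libraries and from 0.47 to 3.33 CPM in the papilla-poor ones. That it split as Aqp4 did follows largely from its choice by correlation with Aqp4.

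Fewer genes were called among the papilla-rich libraries, a fit that has both less spread in papillary transcripts and fewer libraries. Fitted in the 5 papilla-rich libraries alone, an analysis added after seeing the data, LPS against saline called 2 of the 8 genes, Aqp1 (-2.21, adjusted p = 0.049) and Aqp11 (-2.93, 0.0064), where 12.5% of the genes tested were lower. Avpr2 (-2.99, adjusted p = 0.071), Aqp3 (-1.05, 0.12) and Aqp7 (-1.37, 0.13) kept their sign without passing. In the papilla-poor libraries, 1 saline against 1 LPS, all 8 genes were lower in LPS, from -1.79 for Aqp3 to -5.94 for Avpr2. This pair has no replicate check, and the share of all genes lower in it was not counted. The pair also differed in inner medulla markers, at 216 CPM in the saline and 113 CPM in the LPS library. The part of papillary transcripts in the group differences was not tested beyond these values and the fits with a marker term.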

How the data were processed

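Poly(A) RNA of kidney from 9 mice was sequenced as paired-end libraries, with second strands marked by dUTP, per the labels' protocols. Per the submitters' processing notes, the build was GRCm38 and the tools were HISAT2 2.2.1, StringTie 2.1.6, cutadapt 1.9, edgeR and DESeq2, whose roles are not stated. Which program counted reads, whether it used strand and which annotation it used is not given in the sources used here. Each row of the deposited table is a gene, with a raw count and an FPKM value for each library, both made by the authors. Library totals are 53 to 62 M counts.

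The main test was edgeR's quasi-likelihood F test (edgeR 4.0.16, R 4.3.3) after TMM scaling. All 9 libraries entered 1 fit with 1 mean per group and no covariate. It covered the 15015 genes whose FPKM averaged 0.5 or more, and 2-sided p-values were adjusted over all of them by the Benjamini-Hochberg method (threshold 0.05). The SE is the change divided by the square root of F. Positions are those of the table, and promoter sequences are RefSeq's for GRCm38.p6. Levels relative to cell markers are the gene's log2(CPM + 0.1) minus the markers' mean, compared by an exact permutation test. The chain was tested on simulated data.

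All 8 members were named, with up to 4 members of each other list by smallest adjusted p per comparison, the 3 genes most correlated with Aqp1, Aqp2, Aqp3 and Aqp4, and marker genes needed beside a result. Some results withheld from this text are not reported here. The members and lists were chosen with earlier results of these data known. Replicate means a separate mouse, and the labels give no batch. Alternatives covered filters, DESeq2 1.42.0, limma 3.58.1 on log2 FPKM, scaling, terms for urothelial, inner medulla and astrocyte transcripts, and libraries left out. Plots used matplotlib 3.10.9 (Python 3.11.15).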

Additional observations from a re-analysis of the deposited data

How the results depend on the processing

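Of the changes the report names, the falls of Aqp1 and Aqp11 with LPS passed in every alternative that tested them (25 and 24), and those of Aqp3, Aqp7 and Avpr2 lost the call in 15 of 25, 9 of 24 and 12 of 24, with the same sign throughout. The number of genes called among the 8 for LPS against saline, 5, was 2 without an expression filter, with a mean FPKM of at least 5 (which removes Aqp7, Aqp11 and Avpr2), with library totals only, with only the 6 libraries compared and with the 5 papilla-rich libraries, and 2 to 6 with 1 library left out. For LPS+Tβ4 against LPS it was 1 with DESeq2 and 0 to 4 with 1 library left out. For LPS+Tβ4 against saline it was 1 with a mean FPKM of at least 5, 4 with only the 6 libraries compared, 1 in the 5 papilla-rich libraries and 2 to 4 with 1 library left out. The cause was not tested. Where the number of all genes called in the same fit is not given in this text, these counts cannot be set beside it. DESeq2 gave no adjusted p for Aqp6. The papilla-rich set holds 1 LPS+Tβ4 library, which its fit assumes to vary like the other groups.

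With a replicate block 3 of the 8 were called for LPS against saline, Aqp3 (adjusted p = 0.076) and Avpr2 (0.081) being lost, 0 for LPS+Tβ4 against LPS and 2 for LPS+Tβ4 against saline. The labels say nothing of pairing, and same-numbered libraries correlated between -0.64 and 0.28, so the numbers were not used as pairs. Over all genes tested, LPS+Tβ4 against LPS gave 1025 calls, and 3 with the 6 libraries compared, 5 with the block, 2 with an astrocyte term, 647 without a filter, 638 with a mean FPKM of at least 5, 1689 with an inner medulla term, 2442 with DESeq2, 0 in the papilla-rich libraries and 68 to 2672 with 1 library left out. LPS against saline gave 6473, and 3754 with the higher filter and 3730 in the papilla-rich libraries. LPS+Tβ4 against saline gave 3617, and 2268, 871 and, with 1 library left out, 2119 to 4544.

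Signs turned as follows. Relative to proximal tubule markers, Aqp1 differed between LPS and saline by -0.78 to 1.23 with 1 library left out, between LPS+Tβ4 and LPS by -1.22 to 0.79 and between LPS+Tβ4 and saline by -0.21 to 0.20, the last being -0.0031 with a pseudocount of 1. Relative to intercalated cell markers, Aqp6 differed by -0.84 to 1.36 between LPS and saline and by -1.10 to 1.10 between LPS+Tβ4 and LPS. For Aqp4, an astrocyte term gave -6.52, 5.84 and -0.69 in the 3 comparisons in the order LPS against saline, LPS+Tβ4 against LPS and LPS+Tβ4 against saline. LPS+Tβ4 against LPS for Aqp4 was 0.40 with a urothelial and 0.81 with an inner medulla term, and LPS+Tβ4 against saline was -0.025 and -0.019 with limma on FPKM at pseudocounts of 1 and 0.1. For Aqp1, LPS+Tβ4 against LPS was 0.39 with the astrocyte term. In the papilla-rich libraries Aqp2 was -0.48 and -0.51 in LPS+Tβ4 against LPS and saline, and Aqp6 was -0.83 against LPS. With 1 library left out, Aqp2 ranged from -1.08 to 0.69 for LPS against saline, from -0.045 to 1.38 for LPS+Tβ4 against LPS and from -0.023 to 1.16 for LPS+Tβ4 against saline. Likewise LPS+Tβ4 against LPS ranged from -0.62 to 0.38 for Aqp1, from -0.39 to 2.15 for Aqp6 and from -0.49 to 2.104 for Avpr2, and LPS+Tβ4 against saline from -2.48 to 1.65 for Aqp4.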
